A study of Canis lupus familiaris with 6 samples.

Results

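IGF2BP1 and the genes grouped with it as the oncofetal LIN28-HMGA axis were followed through 6 RNA sequencing libraries of canine melanoma cell lines. The 6 genes are IGF2BP1, IGF2BP2, IGF2BP3, LIN28B, HMGA1 and HMGA2, found by their symbols among the 30951 rows of the tables. IGF2BP1 was picked because its level in CMM12 podoplanin KO cells was already known to be far below that of the CMM12 control, and the other genes were picked by family and function. Of the 6, 5 had a row, each with a single row for its symbol, and 4 had enough counts to be among the 12270 genes tested. HMGA2 had no row by that symbol and was not analysed here, and LIN28B had 0 counts throughout.

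CMM12 and CMM2 are both labelled canine melanoma. Each line gave podoplanin KO libraries, numbered 1 and 2, and a control library whose genotype is given as WT. The labels name no other agent, do not say whether a KO line is 1 clone or how the control cells were handled, and do not say that libraries came from separate cultures. P-values therefore measure only the spread between these libraries, which may be technical or clonal. In bulk RNA, fewer cells of a kind and less RNA per cell cannot be told apart. The libraries held 9732927 to 11807835 estimated counts. CMM2 KO 2 stood apart in its line: of 8659 genes at a mean of 10 CPM (library-scaled counts) or more, 6.03% differed at least 2-fold from the CMM2 control, against 0.751% for CMM2 KO 1, while the shares in CMM12 were 4.34% for KO 2 and 4.23% for KO 1. The podoplanin transcript itself, PDPN, had 16.04 TPM in CMM12 KO 1 and 10.8 TPM in CMM12 KO 2, against 94.26 TPM in the CMM12 control. It had 5.71 TPM in CMM2 KO 1 and 5.96 TPM in CMM2 KO 2, against 19.11 TPM in the CMM2 control, so it was lower in every KO library. TPM (a library-scaled level that also allows for transcript length) is used below wherever levels of different genes are compared.

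Of 13 melanocyte markers, 12 had a row by symbol. MITF (15.4 to 28.4 CPM) and the pigment cell transporter gene SLC45A2 (45.5 to 61.6 CPM) were present in all libraries. MLANA, TYR and S100B did not pass 0.0978 CPM in any library, DCT and KIT were at 0 in all 6, and the defining lineage factor SOX10 reached at most 0.0874 CPM. TYRP1 differed between the lines, at 3.71 to 6.07 CPM in CMM12 and 0 in every CMM2 library. PMEL was at 0.437 to 2.64 CPM, S100A1 at 0.0955 to 1.47 CPM and OCA2 at 0 to 4.73 CPM over all libraries. The label melanoma is thus borne by part of the list only. Among the leukocyte markers, PTPRC and CD3E were at 0 in all 6 libraries, ITGAM did not pass 0.365 CPM, CD68 was at 0.851 to 2.77 CPM and CSF1R at 0.0955 to 4.89 CPM.

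The IGF2BP proteins bind messenger RNAs in the cytoplasm and affect their stability, transport and translation. In human and mouse, IGF2BP1 and IGF2BP3 are made mainly in embryos and again in many tumours, while IGF2BP2 is also made in adult tissues. LIN28B blocks maturation of the let-7 microRNAs, which in turn repress LIN28B, HMGA2 and IGF2BP genes. HMGA1 and HMGA2 are small chromatin proteins that bend AT-rich DNA, and the IGF2BP2 gene is known in mouse as a target of HMGA2.

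IGF2BP1 (ENSCAFG00000016907, listed with a transcript length of 2664 bases) was nearly absent from CMM12 KO cells, low in CMM12 control cells and clearly present in all CMM2 cells. It had 0.05 TPM in CMM12 KO 1 and 0.06 TPM in CMM12 KO 2, from 1 count in each library, against 4.9 TPM and 118 counts in the CMM12 control. It had 15.99 TPM in CMM2 KO 1 and 14.74 TPM in CMM2 KO 2, from 428 and 359 counts, against 24.92 TPM and 619 counts in the CMM2 control. From high to low, the order was CMM2 control, CMM2 KO 1, CMM2 KO 2, CMM12 control and both CMM12 KO libraries. The counts of CMM2 KO 1 (exact 95% Poisson interval 388 to 471) and CMM2 KO 2 (323 to 398) overlap in their intervals, those of both CMM12 KO libraries are the same, and all intervals here cover counting error only.

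**Figure D1:**
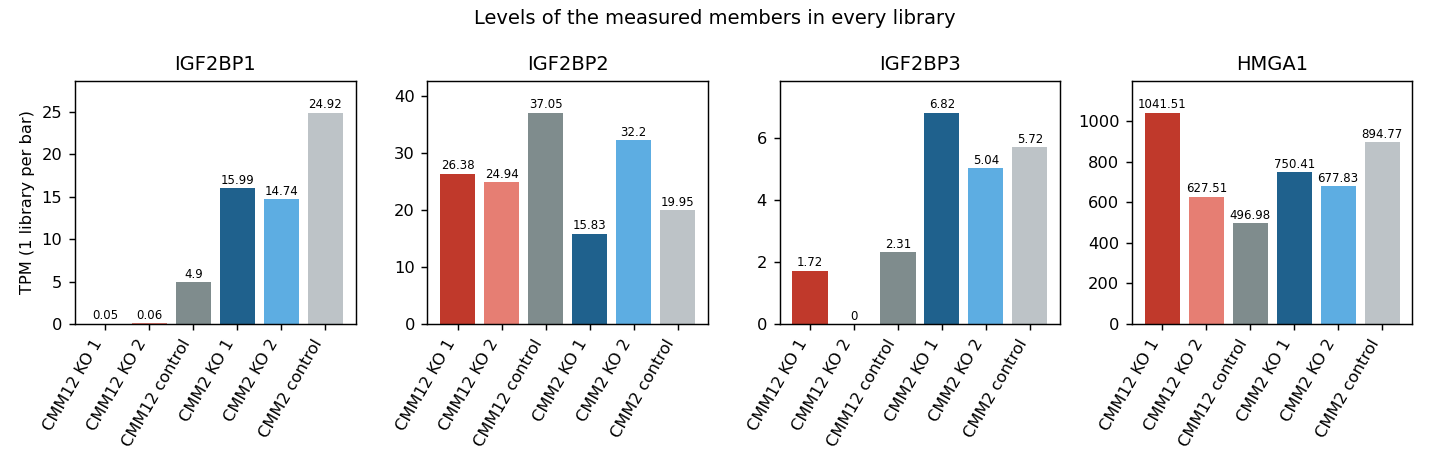
TPM of IGF2BP1, IGF2BP2, IGF2BP3 and HMGA1, 1 bar per library with no error bar, since each bar is 1 library; each panel has its own axis starting at 0. IGF2BP1 is at 0.05 and 0.06 TPM in CMM12 KO 1 and KO 2 and at 4.9 to 24.92 TPM elsewhere, IGF2BP3 is at 0 in CMM12 KO 2, and HMGA1 is at 496.98 to 1041.51 TPM.

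The CMM12 KO contrast is the one that led to the choice of IGF2BP1, so its values describe the choice and carry no test for any of these genes. The pooled CMM12 KO libraries held 2 counts of IGF2BP1 against 118 in the CMM12 control, a KO-to-control ratio of 0.00927 with an exact 95% counting interval of 0.00111 to 0.0342. Both KO libraries kept under 10% of the control level, 0.896% in KO 1 and 0.961% in KO 2, as did both KO libraries of CMM12 for 0.75% of all tested genes. The lone CMM12 control decides this value. Across the whole table edgeR called 1 gene in CMM12 (0.00815% of 12270), which was IGF2BP1, so that call is the choice itself.

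Some markers of other cell types differed between CMM12 KO and control libraries, in both directions. The 4 epithelial markers listed, of 7, summed to 4.65 CPM in CMM12 KO 1 and 5.28 CPM in CMM12 KO 2, against 24.2 CPM in the CMM12 control, mostly from KRT14 (0.0912 and 0.978 CPM in the KO libraries, against 17.7 CPM in the control). EPCAM was at 0.173 CPM or less everywhere, and all 4 epithelial markers were at 0 in every CMM2 library. The 8 fibroblast markers summed to 3381 CPM in CMM12 KO 1 and 5287 CPM in CMM12 KO 2, against 8010 CPM in the CMM12 control, and to 3271 CPM in CMM2 KO 1 and 11163 CPM in CMM2 KO 2, against 1455 CPM in the CMM2 control. The collagen genes COL1A1, COL1A2 and COL3A1 made up most of that sum, and in CMM12 KO cells 4 of the 8 had a positive and 4 a negative log2 fold change. THY1, for example, had 207 and 450 CPM in CMM12 KO 1 and KO 2, against 166 CPM in the CMM12 control. Among the 6 endothelial markers (summed level 6.29 to 15.4 CPM over the 6 libraries, CLEC14A at 0 throughout), KDR had 0.365 and 1.86 CPM in CMM12 KO 1 and KO 2, against 8.02 CPM in the CMM12 control, while VWF had 4.92 and 7.14 CPM, against 1.9 CPM. The leukocyte markers summed to 5.01 and 6.07 CPM in CMM12 KO 1 and KO 2, against 1.81 CPM in the CMM12 control, mostly from CSF1R (3.37 and 4.89 CPM, against 0.776 CPM). They summed to 1.92 and 1.61 CPM in CMM2 KO 1 and KO 2, against 2.96 CPM in the CMM2 control. The part of these cell type markers in the IGF2BP1 result was not tested.

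In CMM2 KO cells the gene was still present. IGF2BP1 stood at 63.3% of the CMM2 control in KO 1 and 57.5% in KO 2, both below the control, as were both KO libraries for 30.9% of tested genes. The log2 fold change was −0.73 (SE 0.29, 95% interval −1.41 to −0.04), with an edgeR quasi-likelihood p of 0.041 and a Benjamini-Hochberg adjusted p of 1, so it did not pass. Over the whole table edgeR called 0 genes in CMM2 (0.0% of 12270, with 233 at an unadjusted p under 0.05), and DESeq2 called 6 (0.0361% of 16601). DESeq2 gave IGF2BP1 an unadjusted p of 0.12. The KO effects in CMM12 (−6.59, SE 0.46) and CMM2 (−0.73, SE 0.29) differed by −5.86 on the log2 scale (SE 0.59), a description since it contains the CMM12 contrast. With 1 count in each CMM12 KO library, the edgeR SE of the CMM12 effect and of the difference understates the uncertainty. DESeq2 gave −6.75 (SE 1.13) in CMM12 and −6.02 (SE 1.22) for the difference.

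Between the lines, IGF2BP1 in control cells was at a CMM12-to-CMM2 ratio of 0.172 (counting interval 0.14 to 0.21). In KO cells the same ratio, from 2 counts against 787, was 0.00264 (0.000319 to 0.00957). All CMM12 libraries lay below all CMM2 libraries, as 46.1% of tested genes had all 3 libraries of one line on one side of all 3 of the other.

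The pattern of IGF2BP1 can be set against other transcripts that were nearly lost from CMM12 KO cells. Of 9671 tested genes at 5 CPM or more in the CMM12 control, 36 were at 10% of it or less in both CMM12 KO libraries. Of these 36, 25 were below 10% of the CMM12 control in all 3 CMM2 libraries too, and 16 had 0 counts there. The 36 were chosen by their level in the lone CMM12 control. The shares of all 9671 genes at such levels in CMM2 were not taken. The 2 of the 36 that stood above the CMM12 control in all 3 CMM2 libraries were IGF2BP1 and the gene for the endothelial glycoprotein endoglin, ENG. ENG had 0 and 0.196 CPM in CMM12 KO 1 and KO 2, against 22.8 CPM in the CMM12 control, and 74.2 and 127 CPM in CMM2 KO 1 and KO 2, against 85.0 CPM in the CMM2 control.

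The genes beside IGF2BP1 on its chromosome were taken in the order of a RefSeq gene table of another assembly. Of the 5 tested genes on each side, 7 had a positive and 2 a negative log2 fold change in CMM12 KO cells, with a median of 0.14 and a range of −0.96 to 4.01. The nearest on one side, SNF8, which encodes a subunit of an endosomal sorting complex, had 32.7 and 29.1 CPM in CMM12 KO 1 and KO 2, against 29.8 CPM in the CMM12 control. UBE2Z, a ubiquitin-conjugating enzyme, had 42.4 and 42.3 CPM, against 38.4 CPM, in the same libraries. On the other side GNGT2, a G protein gamma subunit, had 25.3 and 23.0 CPM in CMM12 KO 1 and KO 2, against 3.02 CPM in the CMM12 control, and ABI3, an actin regulator, had 3.65 and 2.25 CPM, against 0.173 CPM. The lowest of the 10 fold changes, beside −6.59 for IGF2BP1, was that of PHOSPHO1, a phosphatase of bone mineralization, at −0.96 (SE 1.19), with 2.1 and 1.17 CPM in KO against 3.19 CPM in the control. HOXB9, the farthest on its side, was at 0 in all CMM12 libraries.

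**Figure D2:**
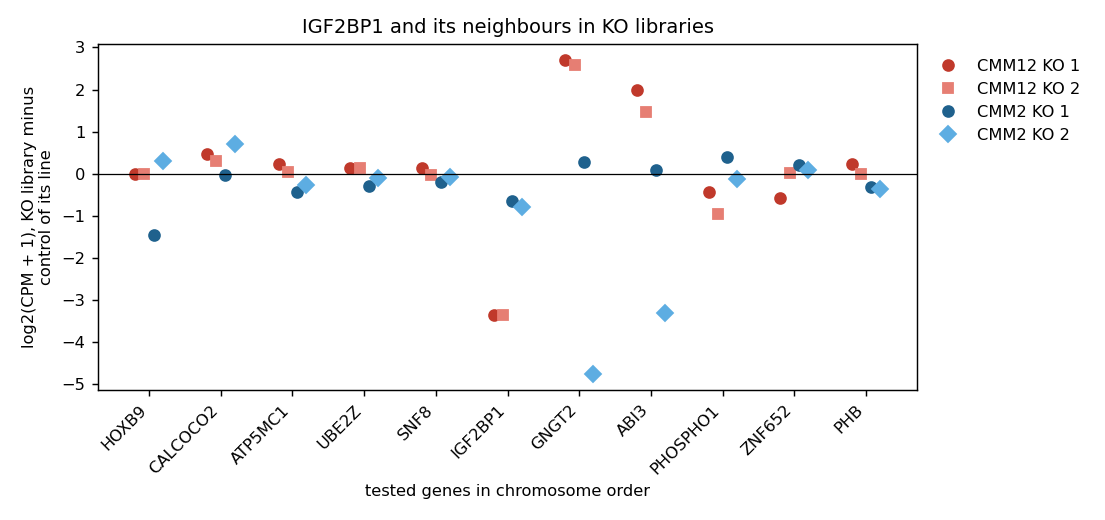
Difference in log2(CPM + 1) between each KO library and the control of its own line, for IGF2BP1 and the 5 tested genes on either side in chromosome order; each point is 1 KO library. IGF2BP1 lies at −3.36 and −3.35 in CMM12 KO 1 and KO 2 on this scale and at −0.65 and −0.78 in CMM2 KO 1 and KO 2, while GNGT2 and ABI3 lie above 0 in CMM12 KO libraries and far below 0 in CMM2 KO 2.

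IGF2BP2 (ENSCAFG00000013297, 2243 bases), the family member that adult tissues also make, was present in all libraries. It had 26.38 TPM in CMM12 KO 1 and 24.94 TPM in CMM12 KO 2, against 37.05 TPM in the CMM12 control. It had 15.83 TPM in CMM2 KO 1 and 32.2 TPM in CMM2 KO 2, against 19.95 TPM in the CMM2 control. Both CMM12 KO libraries were below their control, at 77.4% and 66.7% of it in CPM, a position shared by 34.2% of tested genes, and the CMM2 control lay between its KO libraries. In CMM2 the log2 fold change was 0.23 (SE 0.43, 95% interval −0.80 to 1.27; edgeR adjusted p = 1). Without CMM2 KO 2, the library that stood apart, it was −0.36. CMM12 did not differ from CMM2 beyond the spread of the libraries, at 0.23 (SE 0.29, interval −0.45 to 0.91; edgeR adjusted p = 0.591, beside 25.8% of all genes called between the lines). Without CMM2 KO 2 that contrast was 0.64 and passed (edgeR adjusted p = 0.0464, with 0.0464 to 0.999 over all alternatives).

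IGF2BP3 (ENSCAFG00000002766, 1740 bases), the other oncofetal paralog, was the lowest of the family in every library but CMM12 KO 1, and had no counts in CMM12 KO 2. It had 1.72 TPM (26 counts) in CMM12 KO 1 and 0 TPM (0 counts) in CMM12 KO 2, against 2.31 TPM (34 counts) in the CMM12 control. It had 6.82 TPM in CMM2 KO 1 and 5.04 TPM in CMM2 KO 2, against 5.72 TPM in the CMM2 control. The CMM12 KO libraries thus differed from each other: the ratio of CMM12 KO 2 to CMM12 KO 1, from 0 counts and 26 counts, had an exact 95% upper counting limit of 0.164, while CMM12 KO 1 was at a ratio of 0.808 to the control (counting interval 0.466 to 1.39). IGF2BP3 was therefore undetected in 1 of the CMM12 KO libraries, whereas IGF2BP1 was at 1 count in both. In CMM2 the KO libraries lay on both sides of the control and the log2 fold change was 0.02 (SE 1.29; edgeR adjusted p = 1).

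All 3 CMM12 libraries had less IGF2BP3 than any CMM2 library, at 0 to 2.93 CPM against 7.09 to 9.78 CPM. The lines were likewise apart, in either direction, for 46.1% of tested genes. The log2 fold change of CMM12 over CMM2 was −2.34 (SE 0.91, interval −4.48 to −0.21), and edgeR did not call it (adjusted p = 0.0983). DESeq2, which called 29.1% of all genes between the lines, called it (adjusted p = 0.0464), and over all alternatives the adjusted p was 0.0278 to 0.629. Without CMM12 KO 2, the library at 0, the change was −1.68 and passed with edgeR (adjusted p = 0.042).

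Shares of the summed IGF2BP TPM describe the make-up of the family. IGF2BP2 made up 93.7% of the summed IGF2BP TPM in CMM12 KO 1 and 99.8% in CMM12 KO 2, against 83.7% in the CMM12 control. In CMM2 its share was 41.0% for KO 1 and 61.9% for KO 2, against 39.4% in the CMM2 control. IGF2BP1 made up 0.178% and 0.24% in CMM12 KO 1 and KO 2, against 11.1% in the CMM12 control, and 41.4% and 28.4% in CMM2 KO 1 and KO 2, against 49.3% in the CMM2 control. The summed level was 28.1 and 25.0 TPM in CMM12 KO 1 and KO 2, against 44.3 TPM in the CMM12 control, and both IGF2BP1 and IGF2BP2 were below their CMM12 control level there. In CMM2 the sum was 38.6 TPM in KO 1 and 52.0 TPM in KO 2, against 50.6 TPM in the control, with no common direction.

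**Figure D3:**
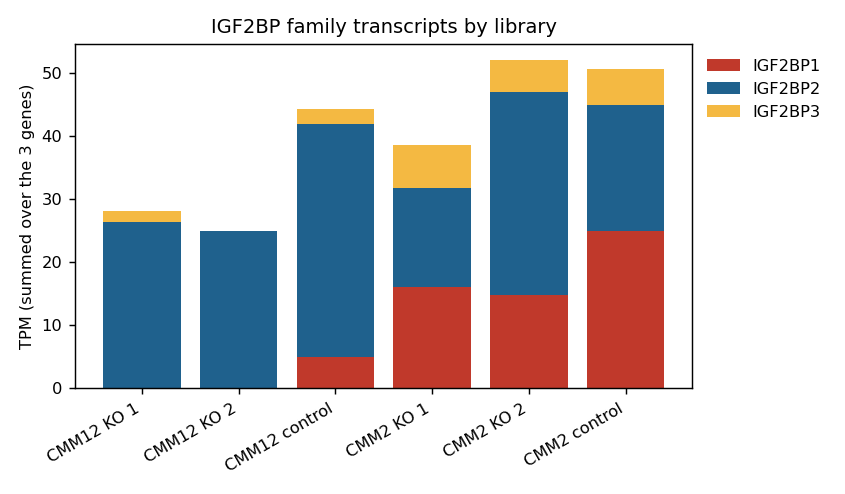
Summed TPM of the 3 IGF2BP genes in each library, 1 stacked bar per library with no error bar. IGF2BP2 makes up 93.7% and 99.8% of the bar in CMM12 KO 1 and KO 2, against 83.7% in the CMM12 control, while IGF2BP1 makes up 28.4% to 49.3% in CMM2 libraries.

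LIN28B (ENSCAFG00000003598, 1189.67 bases), the block on let-7 maturation, had 0 counts in all 6 libraries. A count of 0 allows up to 3 counts, or 0.259 to 0.293 CPM, in each. Its paralog LIN28A was likewise at 0 in all 6 libraries, and TRIM71, another let-7 target of early embryos, reached at most 0.196 CPM. IGF2BP1 and IGF2BP3 were thus detected in CMM2 cells with neither LIN28 gene detectable at this depth. The let-7 microRNAs themselves were not analysed here.

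HMGA1 (ENSCAFG00000001211, 1605 bases), the architectural chromatin protein, was by far the most abundant of these genes. It had 1041.51 TPM in CMM12 KO 1 and 627.51 TPM in CMM12 KO 2, against 496.98 TPM in the CMM12 control. It had 750.41 TPM in CMM2 KO 1 and 677.83 TPM in CMM2 KO 2, against 894.77 TPM in the CMM2 control. Its rank by TPM was 147 to 304 among the 12964 to 14320 rows above 0 in a library. The KO libraries lay above the control in CMM12, at 228% and 125% of it in CPM (both above for 35.6% of tested genes). The CMM2 KO libraries lay below their control, at 82.9% and 73.7% of it (both below for 30.9% of tested genes).

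In CMM2 the log2 fold change of HMGA1 was −0.35 (SE 0.37, interval −1.25 to 0.54; edgeR adjusted p = 1). In CMM12 it was 0.82 (SE 0.39), given as a description, and CMM12 KO 2 was at a ratio of 0.55 to CMM12 KO 1 (counting interval 0.535 to 0.566), so these KO libraries differed from each other by more than counting error. Without CMM12 KO 1 the value in CMM12 was 0.33. CMM12 did not differ from CMM2 beyond the spread of the libraries (−0.25, SE 0.31, interval −0.98 to 0.48; edgeR adjusted p = 0.587). In controls alone that contrast was −1.04 (adjusted p = 0.253), and in KO libraries alone its direction turned, at 0.14 (adjusted p = 0.798).

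Genes around the axis were taken in 8 lists with 117 tested genes, most with medians near 0 in KO cells. In CMM2 KO cells edgeR called 0 of the 117 and DESeq2 0, and in CMM12 KO cells edgeR called 0 and DESeq2 2, beside 0.322% of all genes called there by DESeq2. At an unadjusted edgeR p under 0.05 there were 8 of the 117 in CMM12, beside 735 of all 12270 genes, and 2 in CMM2, beside 233 of all 12270. Between the lines edgeR called 35 of the 117, or 29.9%, beside 25.8% of all tested genes, with 13 higher and 22 lower in CMM12 (14.6% and 11.2% of all tested genes). This lean depended on the scaling and the libraries: with limma on log2(TPM + 1) 18 were called higher and 15 lower, and without CMM12 KO 2 edgeR called 12 higher and 12 lower. The number called was 22 without CMM2 KO 1 and 23 without the CMM2 control.

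Of 27 messenger RNAs reported as bound by IGF2BP proteins in human or mouse, 25 were tested, and their median log2 fold change was 0.02 in CMM12 KO cells and 0.05 in CMM2 KO cells, against 0.02 and 0.00 over all genes. ABCB1, the multidrug efflux pump, was the exception in CMM12. It had 5.56 CPM in CMM12 KO 1 and 8.22 CPM in CMM12 KO 2, against 78.0 CPM in the CMM12 control, and 262 and 137 CPM in CMM2 KO 1 and KO 2, against 251 CPM in the CMM2 control. Like IGF2BP1 it was lowest in both CMM12 KO libraries, intermediate in the CMM12 control and highest in CMM2. The share of all tested genes with this order was not taken. Both CMM12 KO libraries lay below their control for 34.2% of tested genes. The lines lay apart, in either direction, for 46.1%. The change of ABCB1 in CMM12 was −3.50 (SE 0.43), called by DESeq2 and not by edgeR, and it rests on the 1 control library. The lists were chosen with earlier results of these data known, so this call is a description. MYC, the growth regulator whose messenger RNA IGF2BP1 stabilizes in human cells, had 170 and 167 CPM in CMM12 KO 1 and KO 2, against 189 CPM in the CMM12 control. Cyclin D1, CCND1, had 163 and 187 CPM, against 94.1 CPM, in the same libraries (0.89, SE 0.25; edgeR adjusted p = 0.702). ACTB, the classic zipcode-bearing transcript, had 1407 and 1441 CPM, against 1897 CPM (−0.41, SE 0.24; edgeR adjusted p = 0.859).

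Between the lines edgeR called 3 of these 25 targets higher and 4 lower in CMM12, beside 14.6% higher and 11.2% lower of all tested genes. MARCKSL1, a membrane-bound actin regulator, rose by 5.10 in CMM12 over CMM2 (SE 0.35, edgeR adjusted p = 0.000386), and MYC rose by 0.81 (SE 0.15, adjusted p = 0.00859). The thymidine kinase TK1 fell by 1.37 (SE 0.17, adjusted p = 0.00238) and the proliferation marker MKI67 fell by 0.90 (SE 0.15, adjusted p = 0.00632). The median of the list was 0.01, against 0.04 over all genes.

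Of 34 let-7 target genes 30 were tested, with a median of 0.21 in CMM12 KO cells and −0.04 in CMM2 KO cells and none called in either by edgeR or DESeq2. PLAGL1, an imprinted zinc-finger factor, changed by −0.96 in CMM12 KO cells (SE 0.33, edgeR adjusted p = 0.784), and the insulin receptor substrate IRS2 by 0.85 (SE 0.34, adjusted p = 0.825). Between the lines edgeR called 2 higher and 2 lower in CMM12, beside 14.6% higher and 11.2% lower of all tested genes. The matrix glycoprotein THBS1 rose by 1.89 (SE 0.19, adjusted p = 0.00115), while the growth factor receptor IGF1R fell by 1.93 (SE 0.23, adjusted p = 0.00213) and IRS2 fell by 0.97 (SE 0.24, adjusted p = 0.0247).

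Among 14 genes of let-7 biogenesis and turnover, 12 were tested and none was called in a KO comparison. Between the lines edgeR called 1 higher and 4 lower in CMM12, beside 14.6% higher and 11.2% lower of all tested genes. AGO2, the slicing Argonaute protein, rose by 1.00 (SE 0.16, adjusted p = 0.00576). TARBP2, a partner of Dicer, fell by 0.86 (SE 0.16, adjusted p = 0.0101), and DIS3L2, the exonuclease that degrades uridylated let-7 precursors, fell by 0.90 (SE 0.22, adjusted p = 0.0222). DICER1 itself had 136 and 197 CPM in CMM12 KO 1 and KO 2, against 168 CPM in the CMM12 control.

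Protein partners of IGF2BPs (11 tested of 13) and the writers, erasers and readers of m6A (14 tested of 14), the RNA mark that IGF2BPs read in human cells, had no call in a KO comparison either. Their medians in CMM12 KO cells were −0.09 and −0.02. Between the lines, edgeR called 1 partner higher and 2 lower in CMM12, among them the helicase DHX9, which fell by 0.65 (SE 0.15, adjusted p = 0.0206). Of the m6A genes it called 2 higher and 3 lower. Of all tested genes 14.6% were called higher and 11.2% lower in CMM12. ZC3H13 and VIRMA, both scaffolds of the writer complex, fell by 1.31 (SE 0.16, adjusted p = 0.00235) and 1.24 (SE 0.23, adjusted p = 0.00874), and the reader YTHDC2 rose by 1.00 (SE 0.15, adjusted p = 0.00452).

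Of 20 genes bound or regulated by HMGA proteins, 15 were tested. PTGS2, the inducible cyclooxygenase, had 8.21 and 7.83 CPM in CMM12 KO 1 and KO 2, against 0.776 CPM in the CMM12 control (3.35, SE 0.70). DESeq2 called it and edgeR did not. The lists were chosen with earlier results of these data known, so this call is a description. ID1, an inhibitor of differentiation factors, changed by −0.65 in CMM12 (SE 0.25, edgeR adjusted p = 0.823) and by 0.73 in CMM2 (SE 0.27, adjusted p = 1). In the line contrast 4 of the 15 were called higher and 4 lower in CMM12 by edgeR, beside 14.6% higher and 11.2% lower of all tested genes. SNAI1, a repressor of epithelial genes, rose by 2.55 (SE 0.47, adjusted p = 0.0092), and the cell cycle phosphatase CDC25B rose by 0.93 (SE 0.17, adjusted p = 0.0092). CDH1, also among the epithelial markers, was higher in CMM12 too, by 8.65 (SE 0.93, adjusted p = 0.00366). It had 3.33 to 6.3 CPM in CMM12 libraries and 0 in every CMM2 library. RB1 was lower, at 19.6 to 32.2 CPM in CMM12 against 56.5 to 91.2 CPM in CMM2 (edgeR adjusted p = 0.00647). The other HMG proteins (8 tested of 10) had medians of −0.03 in CMM12 KO and 0.02 in CMM2 KO cells. Between the lines edgeR called 1 of them, beside 25.8% of all tested genes. This was HMGB2, which fell by 0.61 in CMM12 (SE 0.18, adjusted p = 0.0448).

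Among 20 fetal growth and imprinted genes, 11 were tested. IGF2, the fetal growth factor for whose messenger RNA the family is named, reached at most 0.783 CPM, in CMM12 KO 2, and was too low to test. PLAG1, a fetal zinc-finger factor, had 18.1 and 14.9 CPM in CMM12 KO 1 and KO 2, against 5.95 CPM in the CMM12 control (1.47, SE 0.41; edgeR adjusted p = 0.702). IGF2R, the clearance receptor for IGF2, had 152 and 160 CPM in the same KO libraries, against 260 CPM in the control (−0.74, SE 0.23; adjusted p = 0.772). In the line contrast edgeR called 1 of the 11 higher and 3 lower in CMM12, beside 14.6% higher and 11.2% lower of all tested genes. GRB10, an adaptor that dampens insulin signalling, fell by 6.05 in CMM12 (SE 0.83, adjusted p = 0.00329). IRS1, a substrate of the insulin and IGF1 receptors, fell by 2.40 (SE 0.37, adjusted p = 0.0048). SOX4 rose by 3.06 (SE 0.65, adjusted p = 0.0147), from low levels of 0.175 to 0.668 CPM in CMM2.

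**Figure D4:**
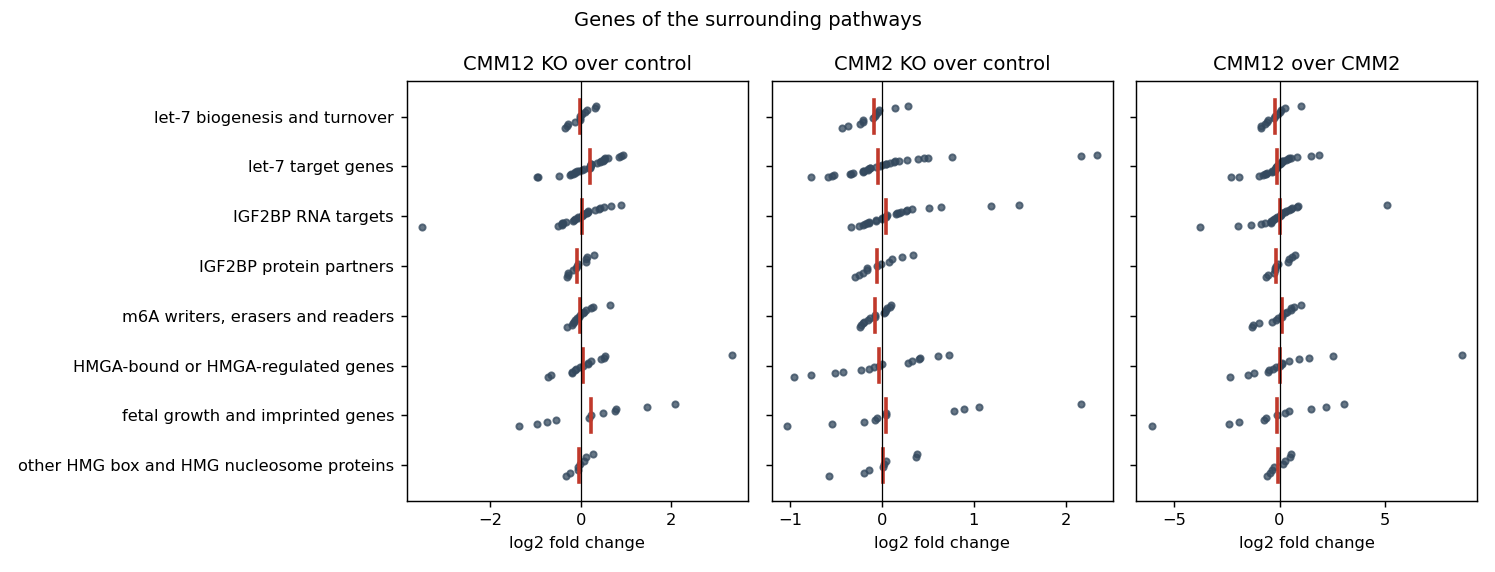
Log2 fold changes (edgeR) of the tested genes in 8 lists around the axis, 1 point per gene and a bar at each list's median; each panel has its own axis. In CMM12 KO cells the medians run from −0.09 to 0.22, with ABCB1 at −3.50 and PTGS2 at 3.35 farthest from 0.

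Transcripts whose levels over the 6 libraries were most like those of each gene were taken from 10133 genes with a symbol and a mean of at least 1 CPM, by Pearson's r of log2(CPM + 1). The libraries share 2 lines, and the r is given as a description. For IGF2BP1 the first were ZNF655 (r = 0.9973), a zinc-finger gene, and EIF2D (r = 0.997), a translation initiation factor. ZNF655 had 16.1 and 16.3 CPM in CMM12 KO 1 and KO 2, against 27.3 CPM in the CMM12 control, and 37.3 and 34.0 CPM in CMM2 KO 1 and KO 2, against 37.8 CPM in the CMM2 control. It had the same order of groups as IGF2BP1 over a far narrower range. RNF40, ZC3HAV1 and ASNSD1 came next (r = 0.9964, 0.9961 and 0.9957). For IGF2BP2 the closest was PIAS3 (r = 0.9899), a SUMO ligase, for IGF2BP3 the ribosomal protein gene RPS15A (r = 0.9979) and for HMGA1 the demethylase-family gene JMJD1C (r = 0.9923).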

How the data were processed

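Total RNA was prepared with an RNeasy kit and turned into libraries with NEBNext Ultra reagents, as the labels' protocols record. The submitters' processing notes list STAR 2.7.3a, RSEM 1.3.3 and CanFam3.1. Annotation version and strand setting are not given in the sources used here. Reads of antisense, overlapping or near-identical genes may therefore be mixed. The authors deposited expected counts, unscaled between libraries, and TPM, per the file headers. Counts were rounded, which changed 3.379% of the values.

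Samples were grouped by title into 4 groups. edgeR 4.0.16 in R 4.3.3 was used (TMM factors, filterByExpr on the groups, glmQLFit and glmQLFTest, Benjamini-Hochberg adjustment at 0.05 over all 12270 genes kept). KO effects came from a model of the 4 group means, which assumes that a lone control varies as the KO pairs do, and the line contrast from a model of line and genotype. SE is the log2 fold change divided by the root of the quasi-likelihood F, an approximation that can be too small at few counts. CPM are scaled by TMM factors. All pairs of libraries within a line differed by more than sampling noise (chi-square statistic over its degrees of freedom 14.1 to 57.3). Alternatives were DESeq2 1.42.0, limma 3.58.1 on log2(TPM + 1) and log2(TPM + 0.1), other factors and filters, and leaving out each library. Scripts were tested on simulated data. There edgeR called 6.5% of the 2-fold and 70.5% of the 4-fold changes put into the CMM2 KO contrast. A KO comparison without a call can thus miss changes of such size. The simulation held 200 true changes and gave genes of like level the same spread, so recovery in these libraries may be lower. The genes named are the 6 of the rule, PDPN, the genes most alike, the neighbours and, from each list and comparison, up to 4 with the smallest p. ENG, DICER1, MYC in KO cells, TRIM71, IGF2 and single cell type markers were named after their values were seen. The genes and lists were chosen with earlier results of these data known.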

Additional observations from a re-analysis of the deposited data

Results flagged for a closer look

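HMGA1 is listed for a closer look because its KO libraries lay on opposite sides of the control in the 2 lines. It had 1308 and 720 CPM in CMM12 KO 1 and KO 2, against 575 CPM in the CMM12 control, and 977 and 869 CPM in CMM2 KO 1 and KO 2, against 1179 CPM in the CMM2 control. The KO effect in CMM12 minus that in CMM2 was 1.17 on the log2 scale (SE 0.54), a description since it contains the CMM12 contrast. Over the whole table edgeR called 0 of 12270 genes for this difference. Without CMM12 KO 1 the difference for HMGA1 was 0.68, and it was 0.68 to 1.54 over the fits without 1 KO library. Of all 12270 tested genes 21.2% lay on opposite sides in this way.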

How the results depend on the processing

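Genes called in CMM2 KO cells numbered 0 with edgeR, 6 with DESeq2, 1 with no low-count filter and 0 to 1 without single libraries. In CMM12 KO cells the number was 1 with edgeR, 42 with DESeq2, 26 with no low-count filter, 0 with at least 1 CPM in 2 libraries, 0 with limma on log2(TPM + 1) and on log2(TPM + 0.1), 75 with limma and no TPM filter, and 0 to 14 without single libraries. The KO effects differed between lines for 0 genes with edgeR (471 at an unadjusted p under 0.05), 23 with DESeq2, 2 with no low-count filter and 0 to 1 without single libraries. Between the lines edgeR called 3170 genes, 1694 in KO libraries only, 169 in controls only and 1499 to 3096 without single libraries. Of the calls 56.5% were higher in CMM12, against 68.2% with limma on log2(TPM + 1), where the median of all genes was 0.15 rather than 0.04. The cause was not tested.

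IGF2BP1 was lower in CMM12 KO cells (−6.75 to −2.48, the smallest with a pseudocount of 1) and in CMM2 KO cells (−0.80 to −0.66) under all 13 alternatives of each. Its line contrast of −5.02 was −8.40 in KO libraries only and −2.54 in controls only. Direction turned in KO libraries only for the line contrasts of IGF2BP2 (−0.0033) and HMGA1 (0.14). Without single libraries these ran from −0.004 to 0.64 and from −0.64 to 0.14, and the CMM2 KO effects of IGF2BP2 and IGF2BP3 from −0.36 to 0.65 and from −0.23 to 0.23. The median of the neighbours in CMM12 was 0.03 to 0.19 without single libraries.

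With the library number (control, KO 1, KO 2) as a replicate block the line contrast called 2959 genes, IGF2BP3 stood at −2.66 (edgeR adjusted p = 0.0685) and no call of these genes changed. The labels do not say what a number shares between the lines, and KO 2 minus KO 1 correlated at 0.06 between them across 8659 genes. For KO against control no paired analysis was possible because a control carries no number.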

Other observations

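Next to IGF2BP1, the adjacent genes GNGT2 and ABI3, chosen after their values were seen, were low in the same pair of libraries. GNGT2 had 1.61 CPM in CMM2 KO 2 and 3.02 CPM in the CMM12 control, and 23.0 to 85.3 CPM in the other libraries. ABI3 had 0.0946 CPM in CMM2 KO 2 and 0.173 CPM in the CMM12 control, and 2.25 to 10.5 CPM in the other libraries. IGF2BP1 did not share this pattern, at 34.0 CPM in CMM2 KO 2 and 10.2 CPM in the CMM12 control.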
